A study of Mus musculus with 14 samples.

Results

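The genes described here are those that separated transgenic from wild-type kidney cortex completely across a normal and a vitamin A deficient diet. A gene was counted when its lowest value in the 8 transgenic libraries lay above its highest value in the 6 wild-type libraries, or the reverse. Of 12251 protein-coding genes with at least 1 FPKM in 3 or more libraries, 1787 met this rule (14.6%), 895 with higher values in the transgenic kidneys (7.31%) and 892 with lower values (7.28%). The wild-type mice ate regular chow (WT, n = 3) or the deficient diet (WT-VAD, n = 3), and mice carrying the GGT-HIF1A_M3 transgene, called TRACK, ate the same chow (TRACK, n = 4) or the same deficient diet (TRACK-VAD, n = 4). All were on a C57BL/6 background, the diets began 2 weeks after weaning and kidneys were taken after 24 weeks, and nothing in the labels gives sex. The labels number the libraries as biological replicates from separate mice. The series title sets the work in clear cell renal carcinoma and the stress response of mitochondria.

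HIF1A is the oxygen-regulated subunit of a transcription factor. In normal oxygen, prolyl hydroxylases mark it and the VHL protein has it destroyed, and in low oxygen it pairs with ARNT, binds short DNA sites with the core ACGTG or GCGTG and raises genes of glucose uptake, glycolysis and lactate export while turning pyruvate away from mitochondria. Loss of VHL, with HIF always on, is the founding lesion of most clear cell renal carcinomas. The TRACK transgene carries a mutant HIF1A that escapes oxygen control, driven by the promoter of gamma-glutamyl transferase, an enzyme of the proximal tubule brush border. The libraries hold RNA of whole cortex pieces, tubule and other cells together. The proximal tubule reclaims glucose, phosphate, amino acids and filtered proteins, secretes organic anions and burns mainly fatty acids.

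Values are scaled FPKM, that is the deposited FPKM divided by a factor per library; the unit is inferred from the table's layout and values, because its header names none. Gene positions are those of the deposited table, whose loci match GRCm38. They are written as the lowest to the highest library with the median in brackets. A difference is transgenic minus wild type on log2(scaled FPKM + 1), averaged over the 2 diets with equal weight and given with its standard error, and the adjusted p comes from limma over all 12251 genes. A gene is called at an adjusted p of 0.05 or less. The added 1 FPKM makes the difference of a low gene smaller than the ratio of its levels.

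Libraries of the same group correlated at 0.957 to 0.992 across genes. TRACK-VAD 2 stood furthest from its group, with a mean correlation of 0.967, followed by TRACK-VAD 3 at 0.974. Depth relative to the mean library, estimated from low values, ran from 0.817 to 1.29, and the absolute depth is unknown. Scale factors were 0.894 to 0.963 in wild-type and 0.991 to 1.17 in transgenic libraries. By their lane labels, WT-VAD and TRACK-VAD 4 were read in lane 6 and every other library in lane 5. The chow comparison thus lies within lane 5, whereas on the deficient diet lane and genotype are nearly the same split. Kidney cortex was recognisable in every library: Kap, an abundant proximal tubule transcript, held 25126 to 59845 (median 51470.4) in transgenic and 49673 to 60615 (median 56181) in wild-type libraries, and the 6 adrenal cortex markers summed to 0.953 scaled FPKM or less. Every library expressed the Y-linked Ddx3y, at 11.3 to 18.2 (median 15) in transgenic and 13 to 19.8 (median 15.7) in wild-type mice. Mouse Hif1a itself did not pass the test (difference -0.08 ± 0.09, adjusted p = 0.542), with 21.6 to 31 (median 27.5) in transgenic and 22.8 to 32.7 (median 28.1) in wild-type libraries, and overlapped between genotypes. A row for the transgene was not used here, and the mouse gene's level is no check of genotype.

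Averaged over diets, 4396 of 12251 genes (35.9%) were called, 2151 higher (17.6%) and 2245 lower (18.3%) in transgenic cortex. On chow alone 2125 genes were called (17.3%), 1045 of them higher, and on the deficient diet 2732 (22.3%), 1362 higher. Called differences of at least 1 on the log2 scale numbered 224 higher and 75 lower. Of the 1787 genes without overlap, 1779 were called and 8 were not, and 2617 further genes were called although some libraries of both genotypes overlapped. The balance between higher and lower depends on the scaling: 48.9% of called genes were higher with scaled values and 83.8% (4471 higher, 862 lower) with the FPKM as deposited, where the median gene shifted by 0.17, and the genes without overlap then numbered 1707 higher and 326 lower. With lane as a term 1966 genes were called, 1010 higher and 956 lower. Only TRACK-VAD was read in both lanes, so that term is set by TRACK-VAD 4 against the other TRACK-VAD libraries. On the deficient diet it in effect sets TRACK-VAD 4 alone against WT-VAD, and calls lost under it below carry this limit. In whole cortex, fewer cells of a type and less RNA per cell cannot be told apart.

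The increases reached further than the decreases. The 895 higher genes had a median difference of 0.68, with 200 at 1 or more and 44 at 2 or more, whereas the 892 lower genes had a median of -0.45, with 64 at -1 or below and 10 at -2 or below. These medians describe genes chosen by their values and carry no test. The empty space between the genotypes was often narrow, with a median of 0.146 log2 units for higher and 0.0987 for lower genes, and it exceeded 1 in 44 higher and 6 lower genes. Just inside the rule stood Myct1 and Rpl7 among the higher genes, where the nearest libraries of opposite genotype both held 2.07 and both held 141 scaled FPKM with gaps of 0.00048 and 0.00049 log2 units, and Mrps5 and Mien1 among the lower genes (both 46.2 and both 80.6). Just outside stood Rasgrp1 (both 1.53) and Fgd5 (both 3.67) on the higher side and Mrps31 (both 19.1) and Rab11fip5 (both 31.2) on the lower side. Of the higher genes, 237 would not have met the 1 FPKM filter in wild-type libraries alone. Of these, 195 were under 1 FPKM in all 6 wild-type libraries, so those could only differ upward. Among the 195 were 2610528A11Rik, Slc16a3, Hk2, Cox4i2 and Areg, described below. They passed the filter only through transgenic libraries, which limits what their adjusted p can show. Among lower genes, 8 would not have met the filter in transgenic libraries alone.

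The largest increase was in 2610528A11Rik (ENSMUSG00000096001, chromosome 14, 37102140 to 37114022), which encodes a secreted peptide ligand of the receptor GPR15. Its values were 134, 180, 179 and 155 scaled FPKM in TRACK and 84.5, 54.1, 69.2 and 116 in TRACK-VAD libraries 1 to 4, against 0.0621, 0.136 and 0.173 in WT and 0.675, 0.326 and 0.201 in WT-VAD (difference 6.50 ± 0.14, adjusted p = 7.06e-12). It was close to silent in every wild-type kidney, so it passed the filter only through the transgenic libraries, where it was high. The gap of 5.04 log2 units between the genotypes was the widest of all genes tested. Ndufa4l2 (chromosome 10, 127514939 to 127517152), a mitochondrial protein known as a HIF target that lowers respiratory chain activity, held 68.8 to 137 (median 117) in transgenic and 1.86 to 4.28 (median 2.49) in wild-type libraries (difference 4.81 ± 0.14, adjusted p = 5.01e-11). Its paralogue Ndufa4, a subunit of cytochrome oxidase, was lower without overlap (difference -0.48 ± 0.07, adjusted p = 0.000241), though quantile normalization took that call away (adjusted p = 0.162). Defb19 (chromosome 2, 152576086 to 152580312), a beta-defensin, held 37.1 to 70.9 (median 57.8) against 1.25 to 1.81 (median 1.49) (difference 4.43 ± 0.13, adjusted p = 5.01e-11).

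Igfbp2 (chromosome 1, 72824503 to 72852474), whose product binds insulin-like growth factors in blood, rose from 0.368 to 2.56 (median 1.44) to 15.1 to 149 (median 75.2) (difference 4.93 ± 0.26, adjusted p = 2.84e-08). Apoc3 (chromosome 9, 46232933 to 46235636), an apolipoprotein that slows the clearance of triglyceride-rich particles, rose from 20.2 to 31.5 (median 24) to 270.3 to 1272 (median 1156) (difference 4.98 ± 0.26, adjusted p = 2.84e-08). F2, which encodes prothrombin, rose from 0.472 to 1.71 (median 1.14) to 7.69 to 76.6 (median 45.7) (difference 4.06 ± 0.20, adjusted p = 1.54e-08). In each of these 3 genes TRACK-VAD 2 was the lowest transgenic library and yet stood well above every wild-type library. Havcr1 (chromosome 11, 46735080 to 46779578) encodes KIM-1, the standard marker of proximal tubule injury, and showed the opposite order, with 303 in TRACK-VAD 2 and 142 in TRACK-VAD 1 against 16.7 to 50.4 in the other 6 transgenic libraries and 0.703 to 2.9 (median 0.947) in wild type (difference 4.46 ± 0.50, adjusted p = 3.01e-05). The remaining genes among the 12 largest increases were Apoa4 (4.06), the lactate exporter Slc16a3 (3.93), Ankrd37 (3.60), the epithelial stress protein Sprr1a (3.58) and the mitochondrial protein Mgarp (3.55).

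**Figure D1:**
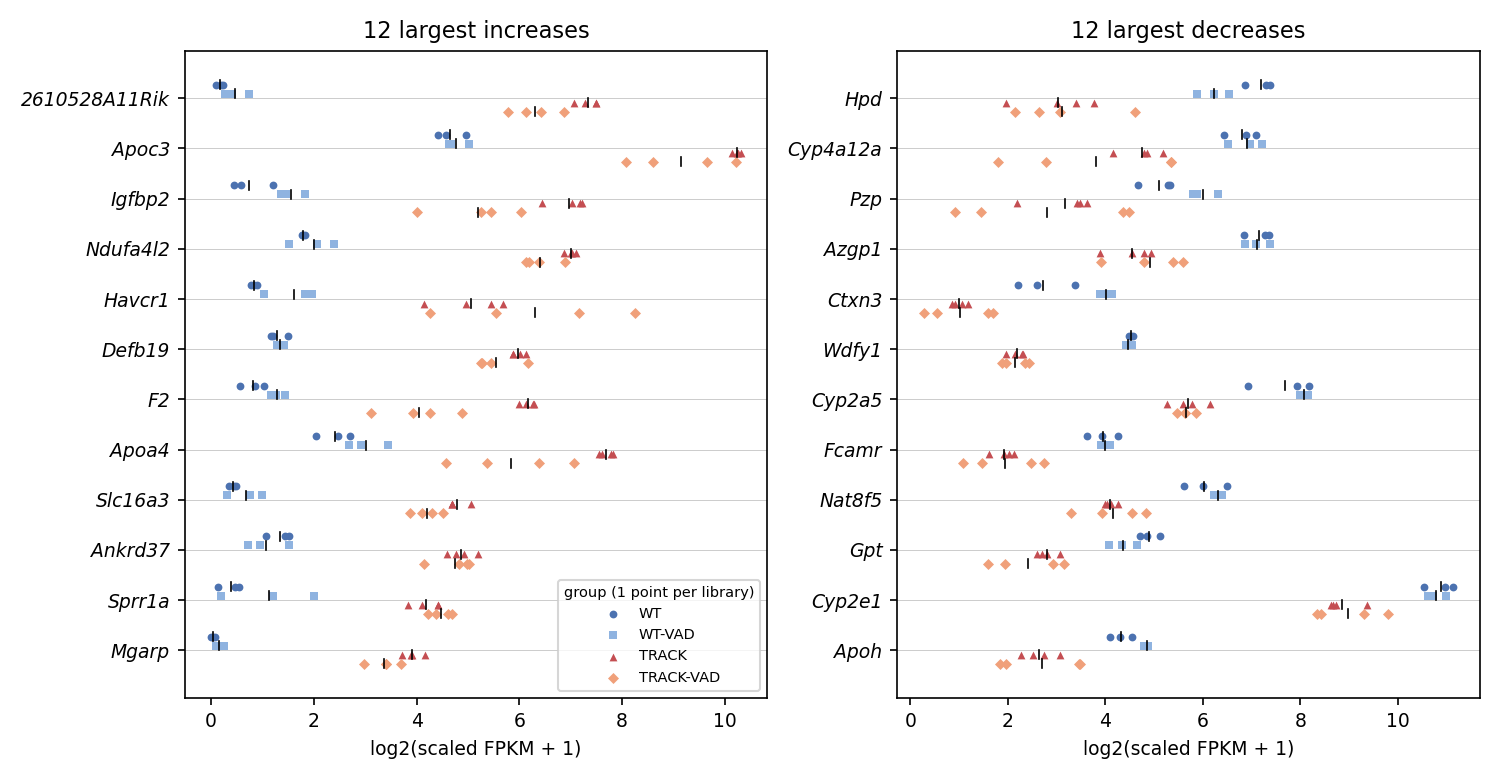
Levels of the 12 genes with the largest averaged increase (left) and the 12 with the largest averaged decrease (right) among called genes without overlap, as log2(scaled FPKM + 1). Each symbol is 1 library, colours and shapes mark the 4 groups and short bars their means. For every gene shown all transgenic symbols lie on one side of all wild-type symbols, which is how the genes were chosen, and 2610528A11Rik has the widest gap (5.04).

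The largest decrease was in Hpd (ENSMUSG00000029445, chromosome 5, 123171807 to 123182727), the dioxygenase of tyrosine breakdown. It held 166, 116 and 157 scaled FPKM in WT and 58.3, 92.1 and 74.4 in WT-VAD, against 2.89, 9.61, 12.5 and 7.02 in TRACK and 3.42, 5.21, 23.6 and 7.36 in TRACK-VAD (difference -3.63 ± 0.35, adjusted p = 9.21e-06). The highest transgenic library, TRACK-VAD 3 at 23.6, stayed far below the lowest wild-type library, WT-VAD 1 at 58.3. Wdfy1 (chromosome 1, 79702262 to 79776143), an endosomal adaptor of Toll-like receptor signalling, had the widest gap among the lower genes, 1.99 log2 units, with 20.4 to 22.5 (median 21.8) in wild-type and 2.7 to 4.39 (median 3.66) in transgenic libraries (difference -2.33 ± 0.09, adjusted p = 1.34e-09). Wdfy1 is also one of a few genes known to differ between C57BL/6 substrains, and of 4 such genes measured Wdfy1, Nnt (-0.64) and Ide (-0.33) fell and Cyfip2 did not pass the test. The labels name no substrain, and its part in these differences was not tested.

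Azgp1, a zinc-binding plasma glycoprotein, fell from 114 to 166 (median 144) to 13.9 to 47.6 (median 26.8) (difference -2.40 ± 0.24, adjusted p = 1.26e-05). Cyp2e1, a cytochrome P450 that oxidises small molecules such as ethanol, fell from 1489 to 2256 (median 1839.7) to 326 to 889 (median 416) (difference -1.92 ± 0.22, adjusted p = 3.94e-05). Cyp4a12a, the male-biased fatty acid hydroxylase of the kidney, fell from 85.1 to 148 (median 122) to 2.46 to 39.6 (median 27.4) (difference -2.57 ± 0.49, adjusted p = 0.00142), and its lowest values were in TRACK-VAD 1 and 2. The other large decreases were in the protease inhibitor Pzp (-2.55), Ctxn3 (-2.36), Cyp2a5 (-2.20), the antibody receptor Fcamr (-2.04), the acetyltransferase Nat8f5 (-2.04), the alanine aminotransferase Gpt (-2.03) and Apoh (-1.91). In the chow comparison fitted to the lane 5 libraries, Pzp and Cyp4a12a kept their direction and were not called (adjusted p = 0.0966 and 0.0594). That fit also held TRACK-VAD 1, 2 and 3, which entered its filter, scaling and estimate of spread. With lane as a term Pzp was at 0.0612.

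Glycolysis rose nearly as a whole. Of 22 genes tested, 19 were called higher (86.4%, against 17.6% of all genes), 15 of them without overlap, and the median difference was 0.97 against -0.01 over all genes. Each list below is to be set beside the shares over all genes. These were 17.6% called higher and 18.3% called lower, and 7.31% higher and 7.28% lower without overlap. The steps with the largest rise were lactate export by Slc16a3 (0.236 to 0.998 (median 0.38) to 13.6 to 32.4 (median 23.3), difference 3.93 ± 0.12, adjusted p = 1.02e-10), the platelet-type phosphofructokinase Pfkp (14.5 to 27.8 (median 18.5) to 129 to 193 (median 164), difference 2.97 ± 0.11, adjusted p = 8.23e-10), hexokinase 2 and pyruvate kinase. Hk2 rose from 0.0245 to 0.29 (median 0.106) to 2.3 to 9.47 (median 6.82) (difference 2.65 ± 0.19, adjusted p = 4.47e-07). Hk1, the isozyme found in most tissues, rose by 0.37 with overlap. Hk1 was not called in the chow comparison fitted to the lane 5 libraries (adjusted p = 0.131). Pkm rose from 32.5 to 47.4 (median 39.2) to 113 to 212 (median 182) (difference 2.07 ± 0.11, adjusted p = 2.84e-08). Eno1 (1.91), Gpi1 (1.84), Aldoc (1.44), the glucose transporter Slc2a1 (1.32), Pgk1 (1.11) and Ldha (0.83) also rose without overlap. Pfkm, the muscle-type phosphofructokinase, was the exception at -0.39. It lost its call without scaling, with lane as a term and in the chow comparison fitted to the lane 5 libraries. Slc2a2, the basolateral glucose transporter of the proximal tubule, was not called (difference -0.00 ± 0.11, adjusted p = 0.987), and Pck1, the entry enzyme of gluconeogenesis, missed the threshold (difference -0.67 ± 0.27, adjusted p = 0.0659), with 648 scaled FPKM in TRACK-VAD 2. Pck1 was called lower without TRACK-VAD 3 (-0.81), without TRACK-VAD 4 (-0.80) and, in an alternative chosen after the data were seen, without TRACK-VAD 1 and 2 (-0.25).

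Of 9 HIF targets that act in or on mitochondria 8 were called higher, all 8 without overlap (88.9%, median 1.05). After Ndufa4l2 came Fam162a, a mitochondrial protein linked to cell death in low oxygen, from 51 to 60.1 (median 53.1) to 217 to 356 (median 297) (difference 2.36 ± 0.09, adjusted p = 8.23e-10). Cox4i2, the hypoxic isoform of a cytochrome oxidase subunit, rose from 0.282 to 0.848 (median 0.572) to 2.87 to 10.6 (median 5.63) (difference 2.20 ± 0.16, adjusted p = 5.14e-07). Pdk1, the kinase that blocks pyruvate dehydrogenase, rose from 21 to 29.2 (median 27) to 78.4 to 144 (median 119) (difference 2.07 ± 0.12, adjusted p = 1.06e-07). The mitophagy receptors Bnip3 (1.05) and Bnip3l (0.60) and Higd1a (0.76) rose less, and the protease Lonp1 (0.15) was not called.

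Among oxygen sensing and HIF feedback genes 11 of 21 were called higher and none lower. Of the HIF subunits Hif3a rose without overlap (0.49), and Hif1a, Epas1 and Arnt were not called, nor were the regulators Vhl, Hif1an and Egln2. The feedback hydroxylase Egln3 rose from 9.7 to 22.9 (median 15.1) to 51.6 to 108 (median 81.3) (difference 2.33 ± 0.13, adjusted p = 5.46e-08) and Egln1 by 0.45. The collagen-modifying enzymes Plod2 (2.05), P4ha2 (1.59), P4ha1 (1.15) and Plod1 (1.15) and the disulfide oxidase Ero1l (1.85) rose without overlap. The feedback genes Cited2 (-0.00) and Bhlhe41 (0.19) were not called. Among secreted vascular signals 5 of 11 were higher. Apln, a peptide of endothelial tip cells, rose from 2.08 to 3.33 (median 2.7) to 5.26 to 13.1 (median 9.66) (difference 1.48 ± 0.13, adjusted p = 3.63e-06), Adm by 0.65 and Vegfa by 0.56 with overlap, from 43.7 to 61.1 (median 49.9) to 57.6 to 113 (median 74.4). The difference of Vegfa was 0.84 on chow and 0.29 on the deficient diet, where it was not called (adjusted p = 0.189). Epo was not tested because it stayed under 1 FPKM in all libraries, with 0.485 as its highest value. Of 10 genes of acid handling 2 were higher and 2 lower, shares close to the 17.6% and 18.3% of all genes. These 4 were carbonic anhydrases: the tumour-associated Car9 rose from 4.76 to 14 (median 8.07) to 42 to 76.7 (median 64.5) (difference 2.76 ± 0.13, adjusted p = 7.92e-09), and Car4, the brush border enzyme of bicarbonate recovery, fell from 86.5 to 158 (median 123) to 34 to 73.1 (median 45.2) (difference -1.38 ± 0.13, adjusted p = 7.48e-06). Car15 (0.72) and Car12 (-0.55) were called with overlap, and Car2 (-0.01) and Car14 (-0.19) were not called.

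The promoters of these members are shown because the HIF core is their textbook switch. RefSeq gives 300-base promoters (250 bases before and 50 after the start, GRCm38.p6) for 9484 of the genes tested, and both strands were searched for ACGTG and GCGTG, which read CACGT and CACGC on the other strand. At least 1 match was found in 24 of 28 HIF list members without overlap (85.7%), compared with 62.7% of all promoters, and at least 2 matches in 71.4% compared with 34.3%. The HIF list promoters were richer in G and C, with a median of 65.2% against 60.7%, and the part of this was not tested. Over all higher genes without overlap the share was 57.4%, over those at 1 or more 56.1%, and over all lower genes 59.3%. The motif was more frequent in these list members than over all promoters, while over the higher genes as a whole it was not. The lists hold known targets and were chosen with earlier results of these data known, so their higher share is only a description. The string CACGTG counted as 2 overlapping matches, so 2 matches can be 1 site. A match is a string of letters and not a shown binding site. Stretches of 60 bases, 5′ to 3′ on the gene's strand with matches in capitals, are given with RefSeq coordinates for the lactate exporter Slc16a3, the HIF targets Ankrd37, Egln3 and Car9, the glycolytic enzymes Pgk1 and Ldha and the mitochondrial genes Fam162a and Bnip3.
Slc16a3, chr11:120949007-120949066, plus strand: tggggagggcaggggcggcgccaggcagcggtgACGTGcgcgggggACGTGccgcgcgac
Ankrd37, chr8:45999974-46000033, minus strand: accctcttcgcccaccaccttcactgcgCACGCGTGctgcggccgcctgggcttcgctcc
Egln3, chr12:54204065-54204124, minus strand: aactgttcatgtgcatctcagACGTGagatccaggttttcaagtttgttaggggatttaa
Car9, chr4:43506966-43507025, plus strand: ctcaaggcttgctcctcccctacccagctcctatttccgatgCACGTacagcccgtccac
Pgk1, chrX:106186922-106186981, plus strand: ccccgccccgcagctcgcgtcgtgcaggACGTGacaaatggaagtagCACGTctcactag
Ldha, chr7:46845728-46845787, plus strand: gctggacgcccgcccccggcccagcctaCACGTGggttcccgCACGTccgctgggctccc
Fam162a, chr16:36071602-36071661, minus strand: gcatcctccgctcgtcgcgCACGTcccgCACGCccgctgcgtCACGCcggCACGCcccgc
Bnip3, chr7:138909592-138909651, minus strand: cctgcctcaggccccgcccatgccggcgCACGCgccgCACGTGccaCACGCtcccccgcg
The Slc16a3 and Car9 stretches end 1 base before the RefSeq start. That of Ankrd37 holds overlapping matches on both strands, and that of Egln3 lies at the far end of its promoter. Differences for these genes ran from 3.93 in Slc16a3 to 0.83 in Ldha, and the number of matches did not follow that order, since the Ldha promoter held 7 matches and the Slc16a3 promoter 2.

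The integrated stress response, through which ATF4 answers amino acid shortage and mitochondrial distress, rose broadly: 15 of 21 genes were called higher (71.4%), 10 without overlap, with a median of 0.76. Trib3, a pseudokinase induced by ATF4, rose from 0.552 to 1.59 (median 0.729) to 6.6 to 14.1 (median 9.35) (difference 2.53 ± 0.16, adjusted p = 2.19e-07). Ddit4, an inhibitor of mTORC1 that HIF also induces, rose from 6.85 to 10.6 (median 7.98) to 22.6 to 54.3 (median 30.1) (difference 1.86 ± 0.12, adjusted p = 1.34e-07). Atf5, the factor tied to mitochondrial protein stress, rose from 5.18 to 10.4 (median 8.11) to 18 to 38.5 (median 28.1) (difference 1.74 ± 0.16, adjusted p = 7e-06). Atf4 (0.69) and asparagine synthetase Asns (1.77) rose with overlap, while Ddit3 (1.12), Atf3 (1.27), Fgf21 (0.91) and Chac1 (0.76) rose without it. Sesn2, a stress-induced sestrin, ran against the list (difference -0.58 ± 0.10, adjusted p = 0.00094), with 14.2 to 37.8 (median 21.8) in wild type and 13 to 18.3 (median 15.1) in transgenic libraries. Its difference was -1.04 on chow and -0.12 on the deficient diet (adjusted p = 0.000443 and 0.57), and the difference between diets was not called (adjusted p = 0.297).

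Genes of one-carbon and proline synthesis moved in both directions. The mitochondrial enzymes Aldh1l2 (0.265 to 1.07 (median 0.62) to 5.29 to 25.2 (median 17.7), difference 3.38 ± 0.21, adjusted p = 1.34e-07), Mthfd2 (1.87 to 5.71 (median 2.88) to 8.04 to 21.2 (median 12.5), difference 1.75 ± 0.17, adjusted p = 1.08e-05) and Mthfd1l (1.02) rose, while Shmt2 (-0.18) and Mthfd2l (-0.10), also mitochondrial, were not called. Aldh18a1, which makes the proline precursor, rose from 0.553 to 1.6 (median 0.88) to 10.6 to 21.7 (median 18.6) (difference 3.22 ± 0.15, adjusted p = 6.51e-09), and Pycr1 (0.68) and the serine synthesis enzyme Phgdh (1.32) rose as well. The cytosolic enzymes Aldh1l1 (-0.69), Mthfd1 (-0.43) and Shmt1 (-0.35) fell without overlap. Of 17 genes 6 were higher and 6 lower, and without scaling only 2 remained called lower. Cytosolic aminoacyl-tRNA synthetases, another ATF4 target group, moved little: 4 of 20 were higher and 2 lower, with a median of 0.05. That count depends on scaling, since 13 were called higher in the deposited FPKM. Gars was the member without overlap (0.44).

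Plasma protein genes that belong mainly to liver did not move as a group. Of 26 tested 5 were higher and 2 lower, and the share called higher, 19.2%, was close to the 17.6% of all genes. Apoc3, F2 and Apoa4 (3.14 to 9.82 (median 5.49) to 22.8 to 224 (median 160.2), difference 4.06 ± 0.30, adjusted p = 8.67e-07), complement C3 (1.66) and transferrin Trf (0.78) rose, Apoh fell from 16 to 28.5 (median 24.5) to 2.6 to 10.2 (median 5.19), and albumin, the main product of liver, was not called (difference -1.11 ± 0.47, adjusted p = 0.0806), with 18.4 to 60.4 (median 47.5) in wild type and 3.49 to 47 (median 19.5) in transgenic libraries. Leaving out TRACK 2, TRACK-VAD 3 or TRACK-VAD 4 brought Alb to a call at -1.29 to -1.33. Among 16 secreted peptides and growth factor binding proteins 7 were higher. Areg, a ligand of the EGF receptor, rose from 0 to 0.126 (median 0.0316) to 2.16 to 4.96 (median 3.36) (difference 2.05 ± 0.12, adjusted p = 7.84e-08), with some wild-type libraries listed at 0. Igfbp4 went the other way, from 429.6 to 717 (median 529.7) to 246 to 373 (median 324) (difference -0.80 ± 0.10, adjusted p = 8.99e-05). Without TRACK-VAD 2 the count of higher genes in this group was 11.

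**Figure D2:**
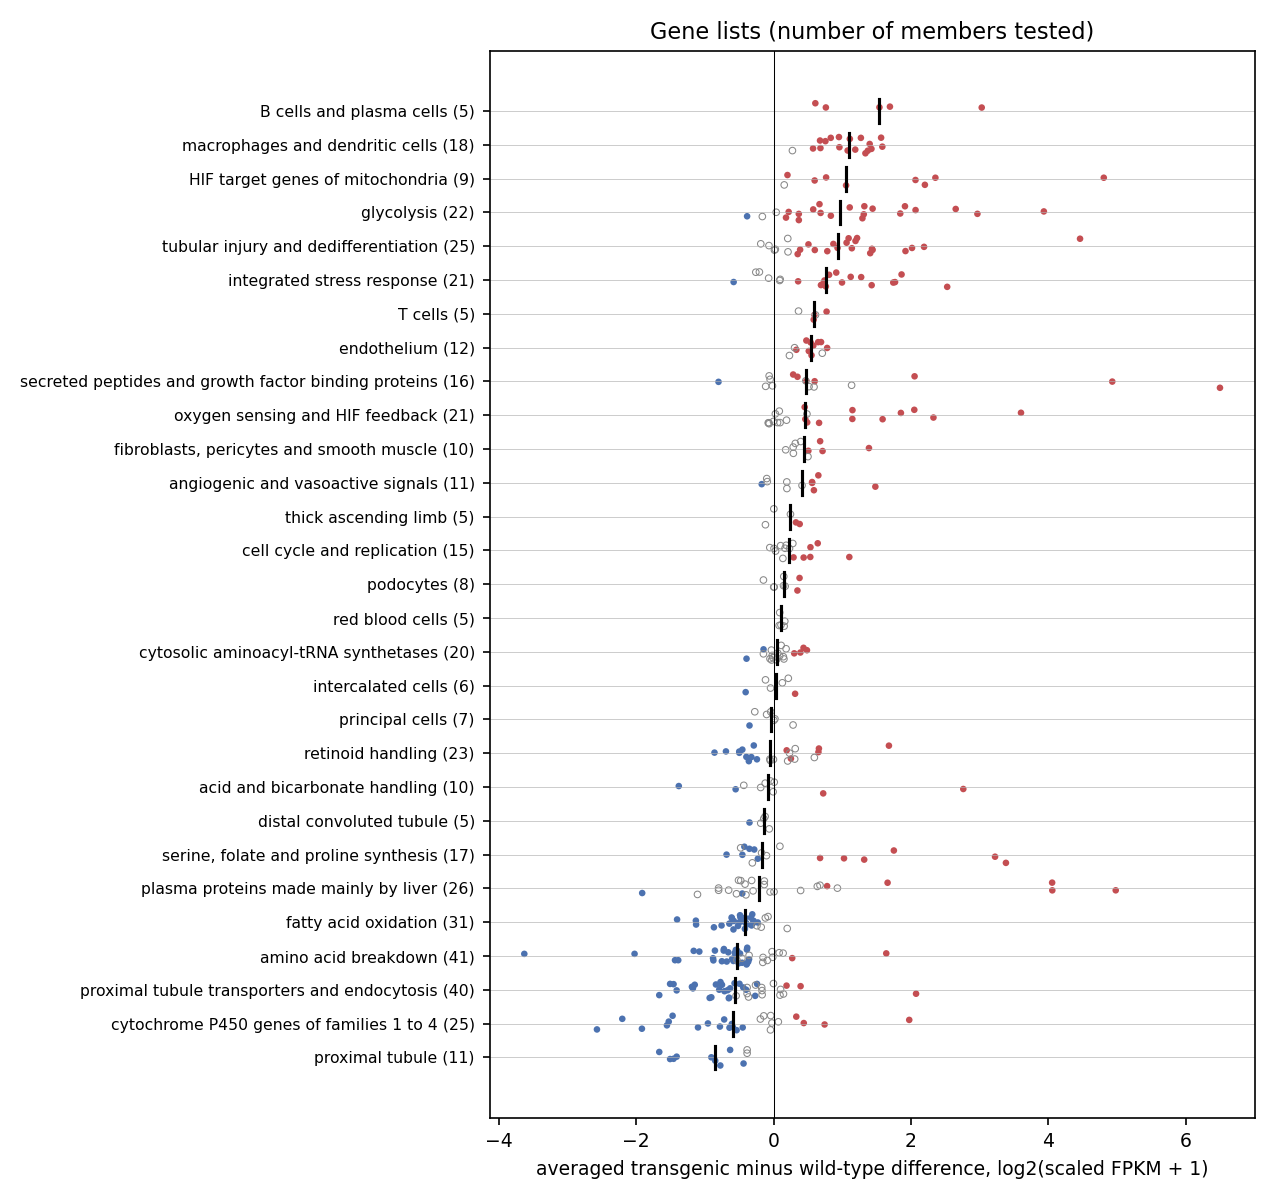
Averaged transgenic minus wild-type difference on log2(scaled FPKM + 1) for each tested member of gene lists with 5 or more tested genes. Filled points are called (red higher, blue lower), open points are not called and black bars are list medians. Glycolysis (0.97), HIF targets of mitochondria (1.05) and macrophage genes (1.09) lie to the right, and fatty acid oxidation (-0.42), amino acid breakdown (-0.53) and proximal tubule markers (-0.85) to the left.

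Fatty acid oxidation fell almost without exception. Of 31 genes 26 were called lower (83.9%, against 18.3% of all genes), 21 without overlap, none was called higher, and the median was -0.42. Without scaling 19 remained called lower and with quantile normalization 16, with 1 called higher there. Large falls were found in peroxisomes: the thiolase Acaa1b, which may share reads with Acaa1a, went from 346 to 637 (median 381) to 128 to 188 (median 157) (difference -1.41 ± 0.12, adjusted p = 2.55e-06), and Ehhadh, the peroxisomal bifunctional enzyme, from 1456 to 1888 (median 1610.0) to 658 to 912 (median 734) (difference -1.13 ± 0.08, adjusted p = 6.63e-07). In mitochondria the carnitine enzymes Cpt2 (-0.76) and Cpt1a (-0.52) and the electron carriers Etfdh (-0.50) and Etfa (-0.49) fell without overlap. The regulator Ppara fell by 0.61 with overlap, and its coactivator Ppargc1a (-0.24) was not called.

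Amino acid breakdown fell in 29 of 41 genes (70.7%), 17 of them without overlap, with a median of -0.53. Besides Hpd these included Gpt, from 15.9 to 34 (median 24.6) to 2.02 to 7.92 (median 5.72) (difference -2.03 ± 0.22, adjusted p = 2.3e-05), and proline dehydrogenase Prodh (-1.39). The arginine synthesis enzymes Ass1 (-1.08) and Asl (-0.88), for which the proximal tubule is the main source, fell too. Arg2, the mitochondrial arginase, was the clear exception, from 2.57 to 7.54 (median 5.93) to 15.3 to 30.3 (median 17.2) (difference 1.64 ± 0.19, adjusted p = 4.71e-05). The Gpt paralogue Gpt2, an ATF4 target, was just called (difference 0.27 ± 0.09, adjusted p = 0.0363) and lost that call in 12 of 25 alternative settings. The values by diet were 0.69 with chow and -0.15 with vitamin A deficiency (adjusted p = 0.00366 and 0.44), though the difference between diets was not called (adjusted p = 0.296). With lane as a term 13 of the 41 were called lower.

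Transport by the proximal tubule fell in 25 of 40 genes (62.5%), 13 without overlap, with a median of -0.56, and with lane as a term in 13. The organic anion transporter Slc22a6 (chromosome 19, 8617996 to 8628299) fell from 409 to 490.4 (median 444) to 69.7 to 178 (median 164) (difference -1.67 ± 0.18, adjusted p = 2.68e-05), its relative Slc22a8 by 1.51, the dicarboxylate transporter Slc13a3 by 1.46 and the phosphate transporter Slc34a1 from 1152 to 1941 (median 1405) to 282 to 836 (median 611) (difference -1.41 ± 0.21, adjusted p = 0.000264). Slc34a2, a phosphate transporter better known from lung and intestine, rose from 1.76 to 2.51 (median 2.1) to 6.99 to 20.3 (median 11.1) (difference 2.07 ± 0.17, adjusted p = 1.91e-06). The glucose reabsorbing Slc5a2 was not called (difference -0.39 ± 0.19, adjusted p = 0.133), with values of 97.1 in TRACK-VAD 2 and up to 318 in TRACK 4 that spanned most of the wild-type range. Among cytochrome P450 genes 15 of 25 were lower and 4 higher, among them Cyp2s1, from 7.32 to 9.41 (median 8.85) to 24.1 to 52.5 (median 36.6) (difference 1.97 ± 0.15, adjusted p = 8.99e-07). Cyp4b1, an abundant male-biased member, fell from 1876 to 2633 (median 2243) to 483 to 1334 (median 760.0) (difference -1.53 ± 0.18, adjusted p = 4.59e-05). Sex-biased kidney genes did not split by sex: 4 of 6 male-biased genes were called lower. Among 4 female-biased genes 3 were called lower and 1 higher. Reads of Cyp2a5 and Cyp2a4 (-0.78), which are near-identical, may have been divided between them.

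Genes of retinoid handling, the target of the diet, were mixed. Of 23 tested, 10 were lower (43.5%, against 18.3% of all genes) and 5 higher (21.7%, close to the 17.6% of all genes). The carotenoid cleaving enzyme Bco2 (-0.86) and the dehydrogenases Dhrs4 (-0.69) and Adh5 (-0.40) fell without overlap, and the median of -0.05 turned to 0.15 without scaling. The receptor Rarg rose by 0.65 without overlap and was not called with lane as a term (adjusted p = 0.105), while the receptor Rxra fell without overlap (-0.32, adjusted p = 0.00313). Rbp4, the plasma carrier of retinol, overlapped between genotypes. It averaged 3.69 ± 2.06 scaled FPKM (SD, n = 3) in WT, 43.5 ± 3.52 (SD, n = 4) in TRACK, 9.93 ± 0.707 (SD, n = 3) in WT-VAD and 11.3 ± 6.05 (SD, n = 4) in TRACK-VAD.

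Genes of tubular injury and dedifferentiation rose in 19 of 25 cases (76.0%), 14 without overlap, with a median of 0.93. Besides Havcr1 these included the cell cycle inhibitor Cdkn1a, from 5.03 to 8.71 (median 6.32) to 17 to 48.7 (median 37.7) (difference 2.19 ± 0.18, adjusted p = 1.7e-06), the adhesion molecule Vcam1 (1.41), Cd44 (1.19) and vimentin (0.78). Lcn2, which encodes the injury marker NGAL, held 83.9 in TRACK-VAD 2 and a median of 7.71 over transgenic libraries. Lcn2 and Krt20 kept their call without TRACK-VAD 1 and 2, an alternative chosen after the data were seen. Both lost it with lane as a term (adjusted p = 0.128 for Lcn2 and 0.0527 for Krt20). Neither was called in the chow comparison fitted to the lane 5 libraries (adjusted p = 0.118 and 0.124). With lane as a term 10 of the 25 injury genes were called. In the library furthest from its group, TRACK-VAD 2, the mean shift of the injury list from wild type was 1.99 log2 units, against 0.65 to 1.21 in the other 7 transgenic libraries. Cell cycle genes rose in 6 of 15 cases, led by Cdk1 (0.399 to 0.911 (median 0.634) to 1.05 to 5.2 (median 2.9), difference 1.10 ± 0.20, adjusted p = 0.00114), and without scaling in 12.

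Markers of macrophages, dendritic cells and plasma cells rose together with these changes. Of 18 macrophage and dendritic cell genes 17 were called higher, all 17 without overlap, with a median of 1.09. Their summed level was 304.1 to 339.8 scaled FPKM in WT and 298.9 to 433.8 in WT-VAD, against 641.5 to 801.8 in TRACK and 867.3 to 2171.2 in TRACK-VAD, and no marker was at 0. The lysozyme gene Lyz2 rose from 9.01 to 18.8 (median 11.2) to 25.3 to 91.8 (median 35.9) (difference 1.58 ± 0.23, adjusted p = 0.000227), the class II antigen chain H2-Ab1 from 35.8 to 56.2 (median 44.1) to 95.7 to 315 (median 122) (difference 1.56 ± 0.19, adjusted p = 5.48e-05) and the signalling adaptor Tyrobp from 6.95 to 9.26 (median 7.72) to 16.5 to 70.3 (median 19.2) (difference 1.42 ± 0.23, adjusted p = 0.000524). TRACK-VAD 2 was the highest library for all 3 of these genes, and without it 17 of 18 were still called. Plasma cell genes rose too, with Jchain from 10.7 to 43.7 (median 19.1) to 42.6 to 372 (median 203) (difference 3.03 ± 0.34, adjusted p = 3.78e-05), overlapping slightly, and Mzb1 from 0.341 to 1.34 (median 1) to 1.89 to 6.8 (median 5.26) without overlap (difference 1.54 ± 0.18, adjusted p = 4.36e-05). T cell markers were low: 3 of 5 were called and, with lane as a term, none. Of 3 neutrophil genes tested 1 was called higher, Retnlg (0.73), with overlap. The other neutrophil genes S100a8 and S100a9 were not called (adjusted p = 0.253 and 0.137). The part of these cells in the other increases was not tested.

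Endothelial genes rose in 9 of 12 cases, 7 without overlap, with a median of 0.55, among them Pecam1 (17.1 to 23.2 (median 20.3) to 26.1 to 44.3 (median 31.6), difference 0.69 ± 0.10, adjusted p = 0.00032), Emcn (0.78) and Esam (0.58). Of 10 fibroblast and smooth muscle genes 4 were higher, led by fibronectin Fn1 (1.79 to 3.68 (median 2.66) to 4.11 to 12 (median 9.36), difference 1.39 ± 0.16, adjusted p = 3.25e-05). Proximal tubule markers fell in 9 of 11 cases tested. The summed level of all 12 listed markers was 4888.7 to 7694.7 scaled FPKM in wild-type and 1654.2 to 3785.7 in transgenic libraries. The sum includes Hnf4a, which was left out of the tests for suspect zeros. Hnf4a was listed at 0 in some libraries of both genotypes and at up to 235 in others. Markers of the other nephron parts moved little: 2 of 5 of the thick ascending limb and 2 of 8 podocyte genes were higher, and 1 of 5 of the distal convoluted tubule and 1 of 7 principal cell genes were lower. Umod, the defining product of the thick ascending limb, was not called (difference 0.24 ± 0.12, adjusted p = 0.13), with 1303 to 1634 (median 1508) in wild type and 1272 to 2232 (median 1925) in transgenic libraries, and it was called higher without scaling (0.45) and with quantile normalization (0.61). Intercalated cell genes showed 1 higher and 1 lower of 6. Of 5 haemoglobin and erythroid genes none was called. Of 3 adipocyte genes tested Fabp4 (1.23) and Cidec (1.48) were called higher, both with overlap. The 6 adipocyte markers summed to 37.0 to 53.5 scaled FPKM in WT, 59.6 to 66.1 in WT-VAD, 76.7 to 801 in TRACK and 66.9 to 384 in TRACK-VAD libraries. Adipoq, the defining adipocyte transcript, reached 61.4 in TRACK 4 and was 0.773 or less elsewhere. The part of fat cells in the other results was not tested.

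**Figure D3:**
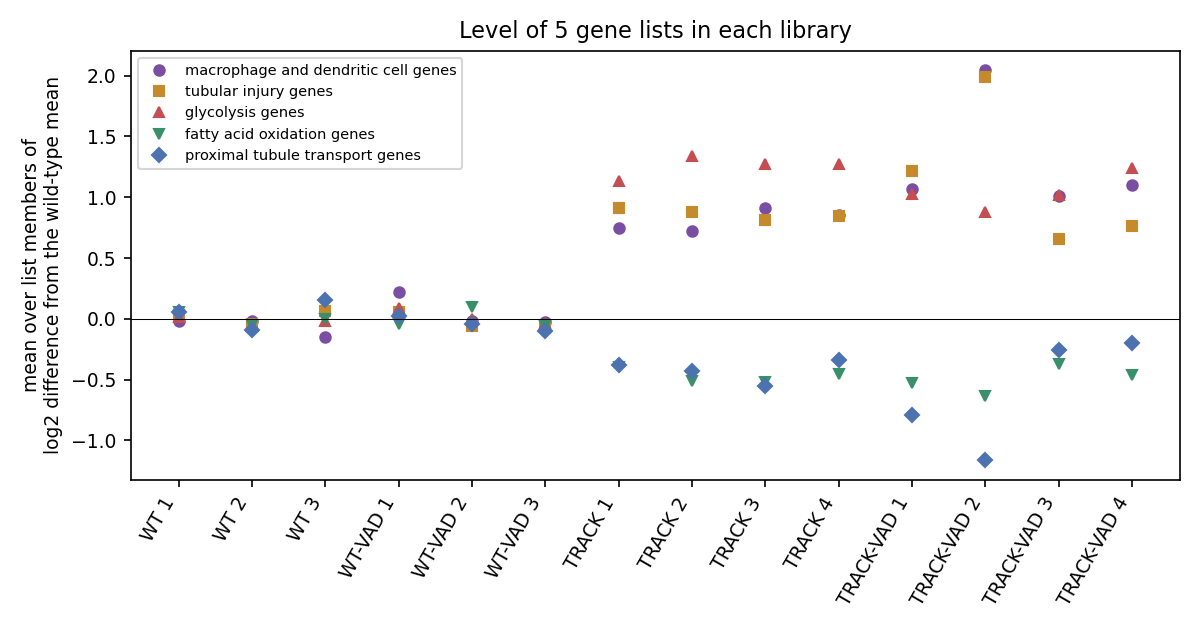
Mean over list members of the log2 difference from the wild-type mean, for 5 gene lists in each of the 14 libraries. Glycolysis lies between 0.88 and 1.34 in all 8 transgenic libraries, while macrophage (0.72 to 2.04), injury (0.65 to 1.99) and proximal tubule transport genes (-1.16 to -0.20) spread more, with TRACK-VAD 2 at the extreme of each.

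The libraries of TRACK-VAD, which were read in both lanes, were the least alike. Their mean correlation with the rest of their group was 0.967 to 0.979, compared with 0.991 to 0.992 for WT, 0.989 to 0.990 for WT-VAD and 0.989 to 0.991 for TRACK. Averaged over the 895 higher genes, the shift from wild type ran from 0.65 in TRACK-VAD 3 to 1.20 in TRACK-VAD 2, and over the 892 lower genes from -0.39 to -0.81 in the same libraries. Glycolysis did not share that order: it was lowest in TRACK-VAD 2 (0.88) and highest in TRACK 2 (1.34). Without TRACK-VAD 1 and 2, an alternative chosen after the data were seen, 3970 genes were called, 3572 of them among the original 4396.

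The genes without overlap had the same direction on both diets because the rule fixes it, so nothing is read from that. The rule also favours genes that differ clearly on each diet. As a description, the higher genes had median differences of 0.63 on chow and 0.71 on the deficient diet and the lower genes -0.44 and -0.46. Some gene lists differed more between the diets: the median of the injury list was 0.50 on chow and 1.13 on the deficient diet, with 10 and 18 genes called, and that of the B and plasma cell list was 2.00 and 1.08, with 5 called on each. The difference of these lists between diets was not tested. Of the higher genes 554 and of the lower genes 576 were called on each diet separately. Over all genes 17.3% were called on chow and 22.3% on the deficient diet. Nothing is read from the 2 counts, because the rule favours such genes. The difference between diets was called for 1 gene of 12251 (0.00816%), and 992 genes (8.10%) had an unadjusted p of 0.05 or less. That gene was Aox1, an aldehyde oxidase able to make retinoic acid. It held 1.41, 1.32, 1.48 and 1.46 scaled FPKM in TRACK and 0.40, 0.30, 0.274 and 0.385 in TRACK-VAD, against 0.0419 to 0.194 in wild type, so that its rise was 1.18 on chow and 0.20 on the deficient diet (difference -0.98 ± 0.12, adjusted p = 0.0179). Only the TRACK libraries reached 1 FPKM, so Aox1 passed the filter through the group where it was high, which limits what its call can show. All values were low. The adjusted p was 0.592 with lane as a term and 0.0784 with a pseudocount of 0.1, ranging from 1.9e-05 to 0.592 over the alternatives. Rises that were also smaller on the deficient diet but missed the threshold were those of F2 (-2.59 ± 0.41, adjusted p = 0.0815), Cpb2 (-2.11 ± 0.34, adjusted p = 0.0815), Egln3 (-1.37 ± 0.26, adjusted p = 0.221) and Igfbp2 (-2.58 ± 0.52, adjusted p = 0.282). Without TRACK-VAD 2 the difference between diets was called for 3 genes, Aox1, F2 and Rbp4, and without TRACK-VAD 4 for 7.

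**Figure D4:**
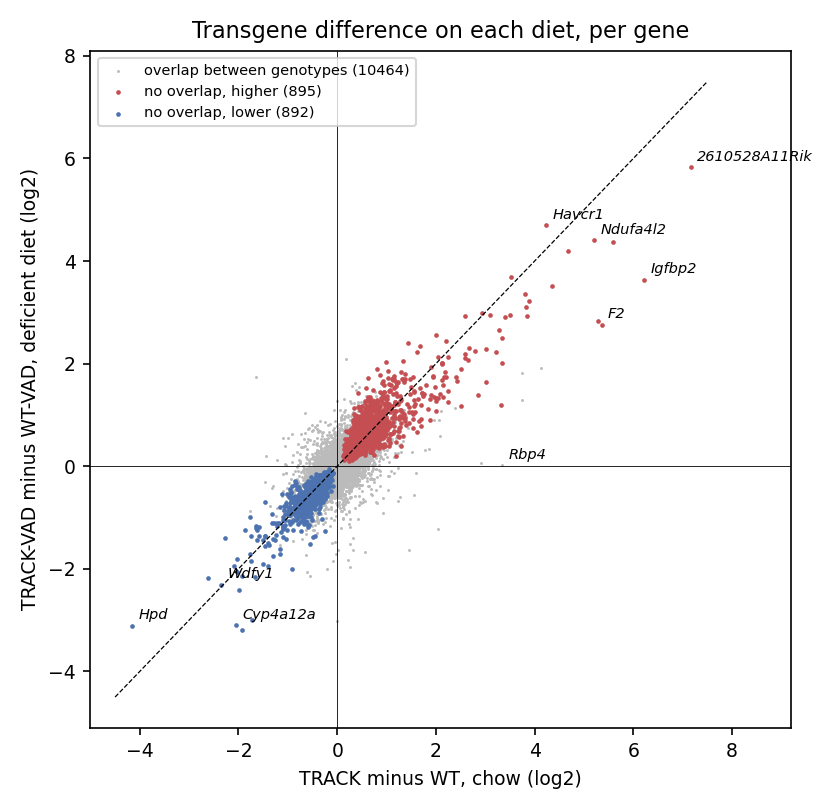
Transgenic minus wild-type difference of each tested gene on chow (horizontal) and on the deficient diet (vertical), on log2(scaled FPKM + 1). Red and blue points are the 895 higher and 892 lower genes without overlap, grey points the rest, and the dashed line marks equal differences. Igfbp2 and F2 lie below the line, and Rbp4 is near 0 on the deficient diet.

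Averaged over genotypes 111 of 12251 genes (0.906%) were called for diet. Among the 1787 without overlap 10 were (0.56%), a share from which nothing is read because the rule disfavours genes with a large diet effect. Of these 10 genes Slc20a1, a phosphate transporter, averaged 11.3 ± 0.509 scaled FPKM (SD, n = 3) in WT, 30.1 ± 3.92 (SD, n = 4) in TRACK, 22.6 ± 2.84 (SD, n = 3) in WT-VAD and 45.1 ± 10.7 (SD, n = 4) in TRACK-VAD. It was thus higher in transgenic mice on each diet and higher in the deficient-diet group of each genotype. Car9 was lower on the deficient diet (-0.61 ± 0.13, adjusted p = 0.046), and so was Acsl1, which activates fatty acids and fell with the transgene as well (-0.55 ± 0.10, adjusted p = 0.0228). Because diet and lane coincide in wild type, they cannot be told apart there.

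Genes without overlap were spread over all chromosomes, from 11.6% of tested genes on chromosome 2 to 18.7% on chromosome 15. Stretches of 1000000 bases were counted from the start of each such gene. The most higher genes in a stretch lay in the major histocompatibility region of chromosome 17. In the stretch from 33951999, 12 of 39 genes tested were higher without overlap, against 7.31% of all genes. The last of the 12 ended at 34316199, and an overlapping stretch from 33996017 held 12 of 40. Among the 12 of the first stretch were H2-K1, H2-Ab1, H2-Aa, H2-Eb1, Tap1, Psmb8 and Psmb9. In the stretch from 54586511 on chromosome 9, 6 of 11 genes tested were lower without overlap, against 7.28% of all genes. The last of these 6 ended at 55512243, and Idh3a and Etfa were among them. Another group of lower genes was the acetyltransferase cluster Nat8, Nat8f1, Nat8f2, Nat8f5 and Nat8f6 on chromosome 6 (85213049 to 85915687). These counts are descriptions, since the stretches were picked for their counts and neighbours can share reads and regulation.

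The authors' deposited tables of TRACK against WT and TRACK-VAD against WT-VAD rest on counts of the same libraries. Of 1786 genes without overlap that were matched, 1784 had the same sign in the authors' deposited table on chow and 1783 on the deficient diet, and 1443 and 1655 were also called there. Over all 12194 matched genes, 27.1% were called there on chow and 32.5% on the deficient diet. The 1786 genes were chosen for their separation in these same libraries, so nothing is read from these counts. Sizes differed for some leading genes. For Hpd the authors' deposited table gives log2 fold changes of -2.31 and -1.63 with no adjusted p, where the FPKM gave -4.15 and -3.11. For Apoc3 the authors' deposited table gives 3.86 and 3.13, where the FPKM gave 5.59 and 4.37, and for Havcr1 1.25 and 2.26, where the FPKM gave 4.23 and 4.69. For 2610528A11Rik the authors' deposited table gives 7.22 and 5.86, where the FPKM gave 7.17 and 5.83. Among 77 named genes with at least 5 scaled FPKM in every group 70 lay within 0.5 log2 units of the authors' deposited table on both diets and 6 were more than 1 apart. Whether the authors' fold changes were shrunken toward 0 is not stated in their headers, so the sizes may not be on one scale, and the cause was not tested.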

How the data were processed

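RNA of kidney cortex from 14 mice in 4 groups was sequenced as 51-base single-end reads, per the labels' protocols. The authors deposited 1 value per protein-coding gene and library (22053 rows, 22007 gene IDs), taken here as FPKM from its Cufflinks-style columns and decimal values, since its header names no unit, and the 6 columns in that table which carry no library name of this series were not used. Per the file headers, the authors' deposited comparison tables hold, for each gene, the signal as a mean of normalized counts, the log2 fold change and the adjusted p-value. Per the submitters' processing notes the named tool and build are DESeq 1.32 and mm9, while aligner and FPKM program are not given in the sources used. Coordinates are those of the FPKM table, counted from 1, and its loci match GRCm38.

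FPKM are not counts, so absolute depth is unknown and no counting interval is given; relative depth came from 1909 genes under 0.15 FPKM. Genes with at least 1 FPKM in 3 libraries were kept (12268), and 17 with suspect zeros were left out: listed at 0 in a library while another of its group and at least 7 libraries held 5 FPKM or more. Libraries were scaled by the trimmed mean of their log ratios to the geometric-mean library, with fractions of 0.3 (ratio) and 0.05 (level) trimmed at each end. limma 3.58.1 (R 4.3.3) was fitted to log2(scaled FPKM + 1) with 4 group means and a mean-variance trend; tests were two-sided and Benjamini-Hochberg adjusted. The fit was checked on simulated data. Plots used matplotlib 3.10.9. The absence of strand information means that reads of overlapping or near-identical genes may be divided.

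The genes, lists and tests were chosen with earlier results of these data known. Named genes were, by rule, the 12 largest called differences without overlap and the 5 widest gaps in each direction, up to 4 such members per list with defining markers and paralogues, up to 8 with the smallest adjusted p between diets, and those next to the no-overlap limit. List members of which fewer than 3 libraries reached 1 FPKM were not tested. Same-numbered libraries do not share an animal, and 6 of 19 such pairs correlated above 0.1, so the numbers were not taken as pairs. Alternatives were no scaling, quantile normalization, no filter or a mean of 5 FPKM, a pseudocount of 0.1, a replicate block, lane as a term, lane 5 only, no trend, an additive model and each library left out. A few members of the gene lists are counted in them but not reported here by name.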

Additional observations from a re-analysis of the deposited data

Results flagged for a closer look

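Among the named genes 258 groups of 4 libraries were looked at, and in 16 a library stood far from the other 3; chance alone gives about 1 in 20 groups. In TRACK 1 the HIF targets Car9 (59.0 scaled FPKM), Egln3 (68.7), Ero1l (28.2), Hk2 (5.68) and Cyp2s1 (27.6) and the protease inhibitor Pzp (3.52) lay below the other TRACK libraries, and Trib3 (13.8) and Acaa1b (159) lay above. Slc16a3 was high in TRACK 2 (32.4), Cyp2e1 (665) and Acox3 (82.2) were high and Aldh18a1 (18.4) was low in TRACK 4. In TRACK-VAD 2 the immune genes H2-Aa (417), H2-Ab1 (315) and Lyz2 (91.8) stood above the rest of their group, and Palld was low in TRACK-VAD 1 (8.39). Every one of these libraries stayed on its genotype's side of all wild-type libraries.

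Aox1 differed between diets by the interaction test: its transgene effect on the deficient diet minus that on chow was -0.98 (limma, adjusted p = 0.0179), with all 4 TRACK libraries above all 4 TRACK-VAD libraries. It met the 1 FPKM filter only through the TRACK libraries, the group where it was high.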

How the results depend on the processing

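Of 129 named genes, 95 kept their call in each of the 25 alternative settings in which they were tested. Low genes were not tested in every setting. No gene changed direction where it was called in the main or the alternative setting. Without scaling 4471 genes were called higher and 862 lower, 1707 and 326 genes had no overlap in each direction, and 4 differed between diets. With lane as a term 1966 were called (1010 higher, 956 lower). The chow comparison fitted to the lane 5 libraries, TRACK-VAD 1, 2 and 3 included, called 1888 (940 higher, 948 lower) with fewer libraries. The lane term rests on 1 library, TRACK-VAD 4, against the rest of its group. The part of lane itself was not tested. A mean of at least 5 FPKM left 572 higher genes without overlap, since fewer genes were tested, and, as with a pseudocount of 0.1, a replicate block and the lane term, 0 genes differing between diets; Aox1 then had adjusted p values of 0.0784, 0.124 and 0.592, and was not tested at 5 FPKM. The replicate block gave 4591 called genes (2252 higher, 2339 lower), and brought Pck1 (-0.83, adjusted p = 0.0216) and Slc5a2 (-0.49, adjusted p = 0.042) to a call. Without TRACK-VAD 1 and 2, chosen after seeing the data, 3 genes differed between diets.

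Leaving out each library in turn gave 3586 to 4768 called genes (1784 to 2352 higher, 1802 to 2416 lower), 906 to 1023 higher and 900 to 1063 lower genes without overlap, and 0 to 7 genes differing between diets. Fewer libraries make the no-overlap rule easier to meet. FPKM carry no depth, so genes near or under 1 FPKM, Aox1 among them, have errors that cannot be given.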
